A study of Homo sapiens with 4 samples.

Results

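The transcripts described here are those of 34 listed target genes of the transcription factor p53, in human HEK293T cells in which MORC2, a chromatin-compacting ATPase, had been edited with Cas9. The members were taken from a fixed list of symbols, matched to the Entrez identifiers of the count table. No measured value enters that rule, but the list was chosen with earlier results of these data known. All 34 were found among the 28775 genes of the table, and 33 of them passed the filter on low counts, as did 16675 genes in all. The 4 samples were poly-A RNA-seq libraries of 2 MORC2 KO lines, sgRNA 1 (replicate 1) and sgRNA 2 (replicate 2), called the gRNA 1 and gRNA 2 lines here, and of 2 wild-type (WT) samples. No drug, time course or DNA-damaging agent is named for any of the 4. HEK293T is a human embryonic kidney line that carries the large T antigen of the virus SV40, so KO and WT samples share that background. The KO lines were electroporated with Cas9 protein and guide RNA and grown as edited bulk populations, not as clones, and both guides target overlapping bases of MORC2. After electroporation the cells were grown to confluence, split further and frozen, and the time from editing to RNA is not given. A response of p53 targets soon after the cuts was therefore not measured in these samples. Whether the WT cells went through electroporation is not given in the sources used here, so effects of editing and of losing MORC2 cannot be told apart in these samples.

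The p53 protein is stabilised after DNA breaks, including the breaks made by Cas9, and binds pairs of a short decamer in its target genes. Its targets stop the cell cycle, start cell death, repair DNA, change metabolism and, through MDM2 and PPM1D, switch p53 off again. Large T antigen binds p53 and holds much of it away from its targets, and for that reason p53 responses are blunted in lines that carry it.

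Total counts lay between 53970043 and 64312514 in the 4 libraries. MORC2 itself was at 51.2 and 55.0 CPM (counts scaled to the TMM-adjusted library size) in the gRNA 1 and gRNA 2 lines and at 86.2 and 87.7 in WT replicates 1 and 2. It fell by 0.71 on the log2 scale (SE 0.06, adjusted p 0.000137), and transcript remained in both lines. Of its exonic bases, 23.3% overlap MORC2-AS1 on the other strand. The gRNA 2 library stood apart: the median absolute log2 difference over all genes tested was 0.141 and 0.163 from the WT samples, against 0.0880 and 0.0882 for the gRNA 1 library and 0.0758 between the WT samples. Each comparison is therefore given for both lines together and for each line alone. Of 8 markers of HEK293 lines, VIM, NEFL and INA were clearly expressed (VIM between 547 and 585 CPM, NEFL between 63.5 and 68.7), NEFM and KRT18 reached 8.85 and 6.80 CPM, and KRT8, PAX2 and LHX1 were at most 2.46 CPM. Of 7 markers of blood, liver, endothelial and stromal cells none exceeded 0.212 CPM in any sample, and COL1A2 was at 0 counts in all 4. The table holds human genes only, so large T antigen was not measured here.

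Most of the members were expressed in WT cells. Levels between genes were compared per length of exon, as RPKM from the TMM-scaled libraries. The median tested member had a WT mean of 6.04 RPKM, the lowest was SPATA18 at 0.606 and the highest GADD45A at 54.9. GADD45A, which binds the cell cycle and repair proteins PCNA and p21, was followed by TRIAP1, a small mitochondrial protein that restrains apoptosome activation, at 52.5 RPKM and by PERP, a membrane protein of cell junctions, at 48.0. CDKN1A, which encodes the cyclin-dependent kinase inhibitor p21, was at 5.80 RPKM, and MDM2, the ubiquitin ligase that degrades p53, at 8.26. GDF15, a secreted stress cytokine, was the one member under the filter, with 7 and 13 counts in the gRNA 1 and gRNA 2 lines and 9 and 3 in WT. In bulk RNA, fewer cells that express a gene and less RNA per cell cannot be told apart.

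**Figure D1:**
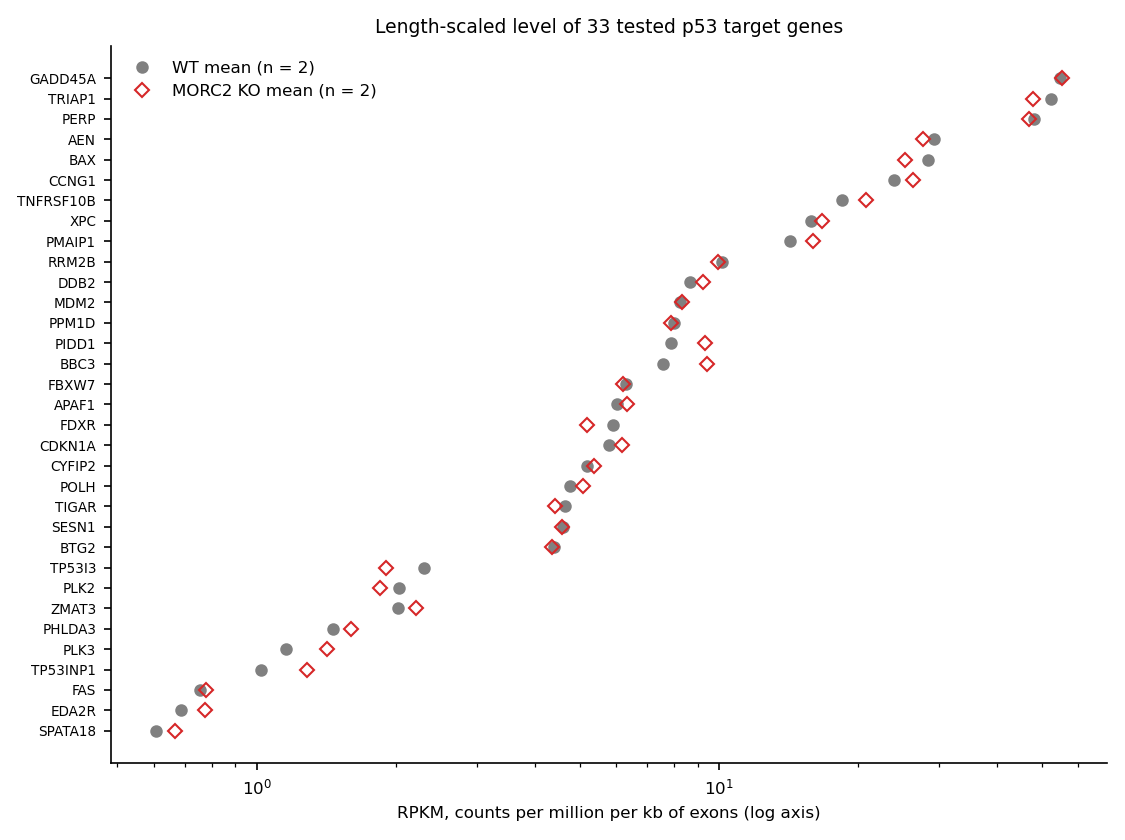
Length-scaled level (RPKM, log axis) of the 33 tested members, with the WT mean (grey circles, n = 2) and the MORC2 KO mean (red diamonds, n = 2). Members are ordered by their WT level, from SPATA18 at 0.606 to GADD45A at 54.9, and the KO and WT marks lie close together beside the distance between genes.

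With both KO lines set against both WT samples, no member passed an adjusted p of 0.05 in edgeR's quasi-likelihood test: 0 of 33 were called higher and 0 lower, where 0.588% and 0.03% of all genes tested were (0.618% in either direction). DESeq2, run without edgeR's filter on low counts, also called 0 of 34, where it called 0.537% of 22728 genes. It had 5 members higher and 0 lower at an unadjusted p under 0.05, against 3.04% and 3.59% of those genes. That background includes genes of low count that the edgeR background leaves out, so the shares of the 2 methods are not alike. At an unadjusted p under 0.05 in edgeR, 6 of the 33 members were higher in KO, 18.2% against 8.14% of all genes tested, and 2 were lower, 6.06% against 6.17%. The log2 fold changes ran from -0.28 to 0.33 with a median of 0.05, beside a median of 0.01 over all genes tested. Of the 33, 20 were above 0, 60.6% against 51.5% of all genes tested. For 28 of the 33 the 95% interval of the log2 fold change lay within 0.5 of 0. The exceptions were PLK3, TP53I3, TP53INP1, EDA2R and PHLDA3, which had at most 496 counts in any sample. Both KO samples lay above both WT samples for 12 members, 36.4% against 24.1% of all genes tested, and below both for 5, 15.2% against 23.4%.

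The members that most often mark p53 activity differed little. CDKN1A (Entrez 1026, chr6:36497108-36508013 on T2T-CHM13) had 22.2 CPM in the gRNA 1 line, 19.7 in the gRNA 2 line, and 19.7 in each WT sample. The gRNA 1 line was thus above the other 3 samples, which were alike to 3 digits. The log2 fold change was 0.09, with a 95% interval from -0.08 to 0.26 and an adjusted p of 0.605. Of the exonic bases of CDKN1A, 7.02% overlap the non-coding gene DINOL on the other strand, and the counting did not use strand. MDM2 (Entrez 4193, chr12:68787755-68830265) had 105.9 and 106.1 CPM in the KO lines and 105.9 and 104.0 in WT. Its KO and WT values overlapped, and the log2 fold change was 0.01, with an interval from -0.11 to 0.14 and an adjusted p of 0.930. PPM1D, the phosphatase that closes the same feedback loop, had a log2 fold change of -0.02 (interval -0.15 to 0.12).

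**Figure D2:**
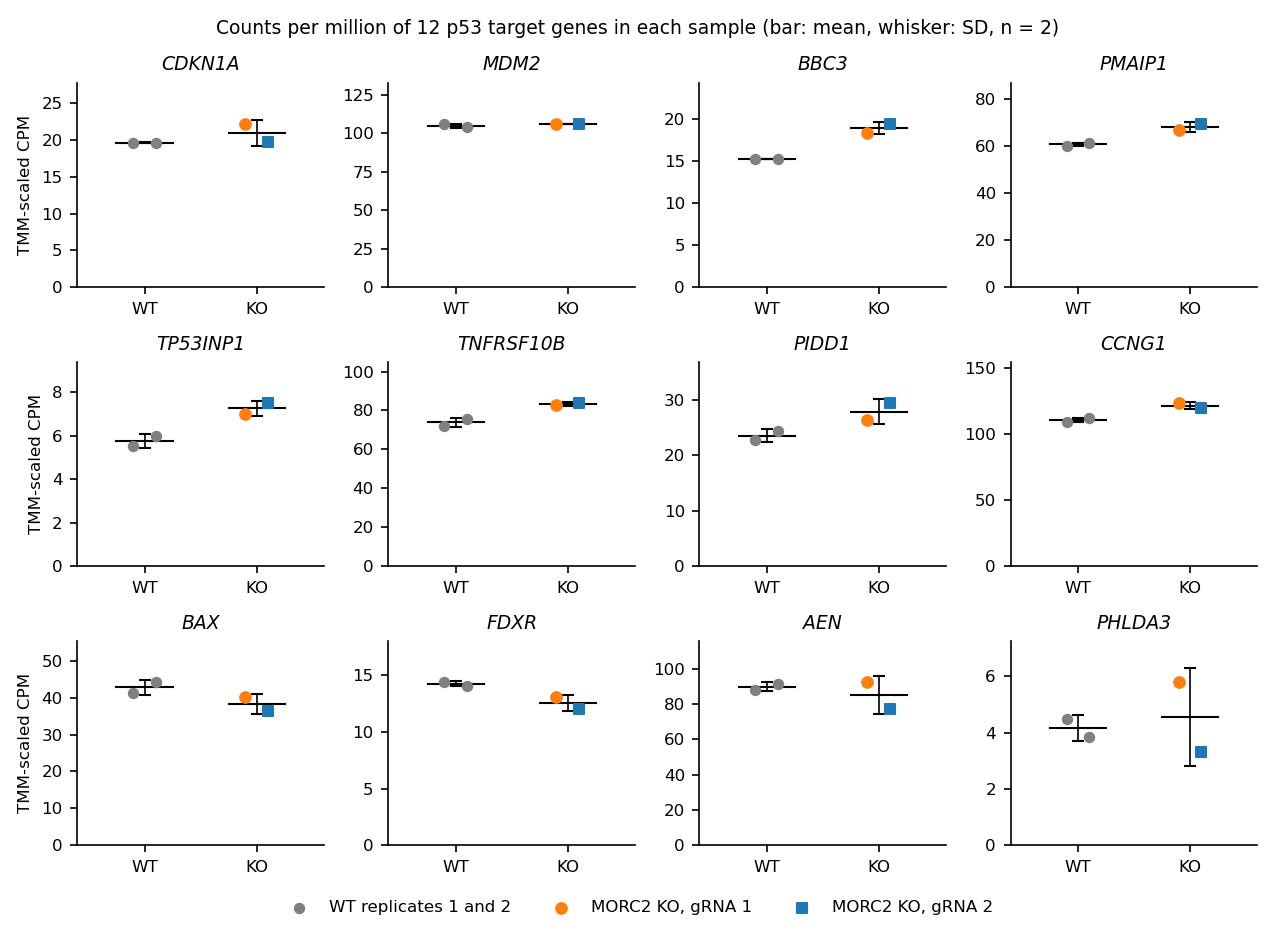
TMM-scaled CPM of 12 members in each sample (linear axes from 0), with WT in grey, the gRNA 1 line in orange and the gRNA 2 line in blue. Horizontal bars are group means and whiskers the SD (n = 2), and the KO points lie above both WT points for BBC3, PMAIP1, TP53INP1, TNFRSF10B, PIDD1 and CCNG1 and below both for BAX and FDXR.

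Of the 8 members at an unadjusted p under 0.05, 4 belong to the mitochondrial death role, which holds 8 of the 34 members, and 2 to the death receptor and membrane role, which holds 7. The roles are broad labels: the former also holds TRIAP1 and the nuclease AEN, and the latter the caspase 2 scaffold PIDD1. BBC3 encodes PUMA, a BH3-only protein that frees BAX and BAK at mitochondria. It had 18.3 and 19.4 CPM in the gRNA 1 and gRNA 2 lines and 15.2 in each WT sample, so both KO values lay above WT. The log2 fold change of BBC3 (Entrez 27113, chr19:50046144-50057991) was 0.31 (SE 0.08, adjusted p 0.118). TP53INP1 (chr8:96050944-96074374), a nuclear and autophagy protein that promotes p53-dependent death, was the lowest of the 8, with 7.01 and 7.51 CPM in KO and 5.55 and 5.99 in WT. Its groups did not overlap, and the log2 fold change was 0.33 (SE 0.11, adjusted p 0.236). PMAIP1 (chr18:60102671-60106980) encodes NOXA, the BH3-only protein that neutralises MCL1, and had 66.5 and 69.3 CPM in KO against 60.0 and 61.1 in WT. Both KO values were again higher, by 0.17 on the log2 scale (SE 0.06, adjusted p 0.252).

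The cell surface and signalling members on the higher side were TNFRSF10B and PIDD1. TNFRSF10B (chr8:23295094-23344001), the death receptor DR5 for the ligand TRAIL, had 82.6 and 83.9 CPM in KO and 72.2 and 75.5 in WT, with a log2 fold change of 0.17 (SE 0.06, adjusted p 0.232). PIDD1 (chr11:850616-856664), the scaffold of the complex that activates caspase 2, had 26.3 and 29.5 CPM in KO and 22.7 and 24.4 in WT. For both genes each KO sample exceeded each WT sample, and the log2 fold change of PIDD1 was 0.25 (SE 0.08, adjusted p 0.203). CCNG1 (chr5:163972739-163983375), the cyclin G1 that recruits a phosphatase to MDM2, had 123.6 and 119.6 CPM in KO and 109.4 and 111.8 in WT. Its log2 fold change was 0.14 (SE 0.06, adjusted p 0.310). CCNG1 shares 33.1% of its exonic bases with NUDCD2 on the other strand, so its counts are less certain than those of the other 7. With no filter on low counts, BBC3 and PIDD1 passed the adjusted threshold, at 0.0158 and 0.0428. Calls rose for all genes in that fit, with 463 of 22728 genes higher against 98 of 16675 with the filter.

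BAX and FDXR were the 2 on the lower side. BAX (chr19:51949757-51956683), the pore-forming effector of the mitochondrial death pathway, had 40.2 and 36.4 CPM in KO and 41.3 and 44.2 in WT, with a log2 fold change of -0.16 (SE 0.07, adjusted p 0.323). Both KO values were under both WT values, with that of the gRNA 1 line close to WT replicate 1. FDXR (chr17:75754283-75764782), the mitochondrial ferredoxin reductase, had 13.1 and 12.0 CPM in KO and 14.4 and 14.1 in WT, with a log2 fold change of -0.18 (SE 0.08, adjusted p 0.346). Genes grouped under the mitochondrial death role thus lay on both sides, and 4 of the 8 in that role had a positive log2 fold change.

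The other members are given by role. Among the arrest genes, PLK3, a stress-responsive polo-like kinase, had a log2 fold change of 0.29 (SE 0.17), while BTG2, FBXW7 and PLK2 lay between -0.14 and -0.01. APAF1, the core of the apoptosome, was at 0.07, and TP53I3, a quinone oxidoreductase, was at -0.28 (SE 0.14), the lowest of all members. Among membrane genes, the ectodysplasin receptor EDA2R was at 0.17, CYFIP2 at 0.05 and PERP at -0.03. None of these had an adjusted p under 0.388. The DNA repair genes lay close to 0: DDB2 and XPC, which find ultraviolet lesions, were at 0.10 and 0.08, the translesion polymerase POLH at 0.09 and the ribonucleotide reductase subunit RRM2B at -0.03. Of the metabolic genes, TIGAR, which redirects glycolysis, was at -0.07, and SPATA18, which acts in mitochondrial quality control, at 0.13. The RNA-binding protein ZMAT3 was at 0.12, with 22.0 and 20.6 CPM in KO and 21.6 and 17.5 in WT.

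The direction of a fold change also moved with the level of a gene. Over all genes tested with a mean log2 CPM between 0 and 2 the median log2 fold change was 0.09, between 2 and 4 it was 0.05, between 4 and 6 it was 0.00, and over 6 it was -0.05. Of the 33 members, 5, 5, 16 and 7 fell in these classes. Under offsets that removed this trend in each library, 0 members were called in either direction.

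Each KO line was then compared with both WT samples on its own, and the lone KO library was assumed to vary like the WT libraries. In the gRNA 1 line, 0 of 33 members were called, where 1.02% of all genes tested were. At an unadjusted p under 0.05, 10 members were higher, 30.3% against 5.64% of all genes tested, and 0 lower, where 4.48% of all genes were. These were CDKN1A, PLK3, CCNG1, BBC3, PMAIP1, TP53INP1, TNFRSF10B, PIDD1, PHLDA3 and DDB2. The log2 fold change in this line was 0.18 for CDKN1A (SE 0.07, adjusted p 0.363), 0.46 for PLK3 (SE 0.17, adjusted p 0.275) and 0.47 for PHLDA3 (SE 0.14, adjusted p 0.108). Across the members, 25 of 33 were above 0 in the gRNA 1 line, 75.8% against 50.2% of all genes tested. The member median was 0.07 beside 0.00 over all genes tested. All 10 rest on the same WT pair and on 1 KO library.

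In the gRNA 2 line, 9 of 34 members were called, 26.5% against 20.5% of all genes tested, as this line differed from WT at 3514 of 17129 genes. The 5 members that rose were BBC3, PIDD1, PMAIP1, TP53INP1 and TNFRSF10B, where 8.16% of all genes tested rose. BBC3 rose by 0.34 on the log2 scale (SE 0.08, adjusted p 0.00380) and PIDD1 by 0.31 (SE 0.07, adjusted p 0.00317). PMAIP1 rose by 0.18 (adjusted p 0.0228), TP53INP1 by 0.37 (adjusted p 0.0308) and TNFRSF10B by 0.17 (adjusted p 0.0308). Of these 5, 3 belong to the mitochondrial death role and 2 to the death receptor and membrane role. The 4 members that fell were TRIAP1, AEN, BAX and FDXR, where 12.4% of all genes tested fell. TRIAP1 fell by 0.29 (SE 0.06, adjusted p 0.00102) and AEN, a p53-induced nuclease that cuts DNA and RNA in dying cells, fell by 0.23 (SE 0.05, adjusted p 0.00548). BAX fell by 0.25 (adjusted p 0.00843) and FDXR fell by 0.26 (adjusted p 0.0357). Of the 8 genes grouped under the mitochondrial death role, 4 were above 0 in this line, with log2 fold changes from -0.29 to 0.37. CDKN1A was at -0.01 (adjusted p 0.955) and MDM2 at 0.00 (adjusted p 0.978) in this line. Across the members, 16 of 34 were above 0, 47.1% against 49.6% of all genes tested, with a median of -0.01 beside 0.00. With offsets that removed the trend on abundance, 8 of 34 members were called, 5 higher and 3 lower, against 11.7% of all genes tested (6.47% higher and 5.27% lower), so both the background and its direction depended on the scaling. AEN and TP53INP1 were no longer called in this line (adjusted p 0.0572 and 0.134) and CCNG1 was, at 0.17 (adjusted p 0.0377).

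**Figure D3:**
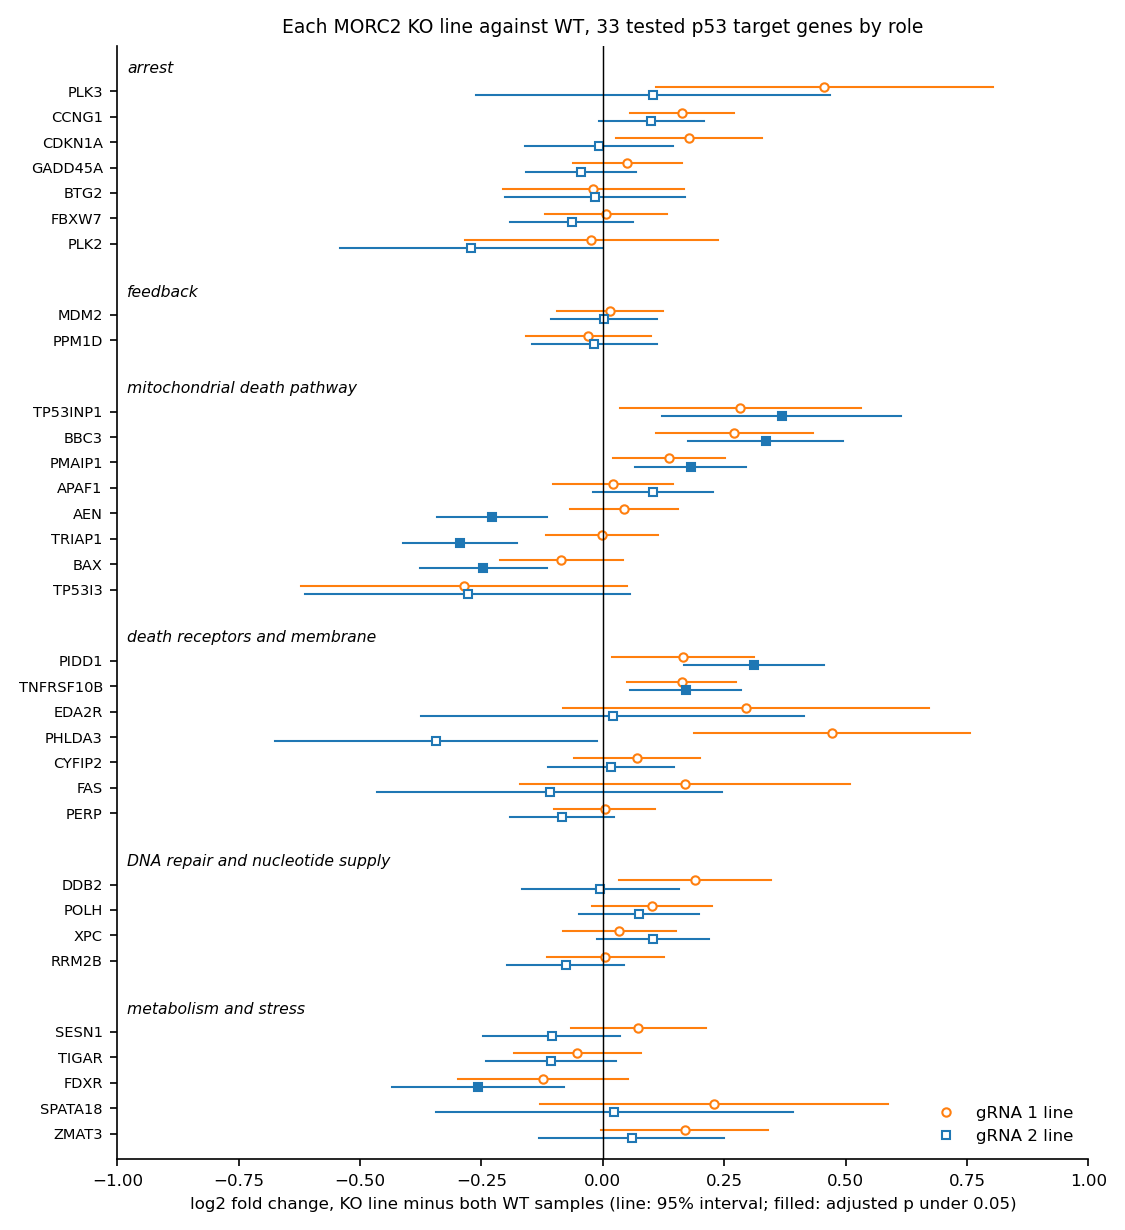
log2 fold change of each MORC2 KO line against both WT samples for the 33 members tested in the genotype comparison, grouped by role, with 95% intervals as horizontal lines. Filled marks have an adjusted p under 0.05: 0 in the gRNA 1 line (orange circles) and 9 in the gRNA 2 line (blue squares), of which 5 lie to the right of 0 and 4 to the left.

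For some members the lines lay on opposite sides of WT. The gRNA 1 line was above both WT samples and the gRNA 2 line below both for GADD45A, AEN, FAS, PHLDA3 and SESN1, which is 5 of 33 members, 15.2% against 6.76% of all genes tested. The reverse order was seen for 0 of 33, against 7.15%. In a fit with 3 groups, whose spread comes from the WT pair alone, the difference between the lines was called for 3 of 34 members, 8.82% against 2.08% of all genes tested. In all 3 the gRNA 2 line was lower, where 1.33% of all genes tested were.

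PHLDA3 (chr1:200722059-200726971), a pleckstrin homology protein that competes with AKT at the membrane, had 5.80 CPM in the gRNA 1 line, 3.33 in the gRNA 2 line, and 4.50 and 3.85 in WT. The KO lines were thus farther apart than the WT samples, on counts of 347 and 220, and the gRNA 2 line lay lower by a log2 difference of -0.80 (SE 0.17, adjusted p 0.0219). AEN (Entrez 64782, chr15:86376045-86386993) had 92.5 CPM in the gRNA 1 line, 77.4 in the gRNA 2 line, and 88.1 and 91.6 in WT. The gRNA 2 line was the low sample, with a log2 difference from the gRNA 1 line of -0.26 (SE 0.06, adjusted p 0.0378). TRIAP1 (chr12:120432477-120434897) had 60.3 CPM in the gRNA 1 line, 49.7 in the gRNA 2 line, and 60.8 and 60.0 in WT, a log2 difference between the lines of -0.28 (SE 0.07, adjusted p 0.0318). Here the other 3 samples were alike and the gRNA 2 line stood below them.

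The difference between the lines was not called for the other members of this kind. FAS, the receptor for FAS ligand, had 3.56 and 2.97 CPM in the gRNA 1 and gRNA 2 lines and 3.33 and 3.01 in WT, and 11.2% of its exonic bases are shared with ACTA2 and FAS-AS1. GADD45A had 76.8 and 72.6 CPM in KO and 74.2 and 74.3 in WT. SESN1, a leucine-sensing inhibitor of mTORC1, had 29.5 and 26.4 CPM in KO and 28.7 and 27.5 in WT. For FAS, GADD45A and SESN1 the log2 difference between the lines was -0.27 (SE 0.20), -0.08 (SE 0.06) and -0.17 (SE 0.08), with adjusted p-values of 0.517, 0.539 and 0.273. That of FAS was as large as the differences of AEN and TRIAP1, on far fewer counts. CDKN1A, which was higher in the gRNA 1 line alone, had a difference between the lines of -0.17 (SE 0.08, adjusted p 0.290), so its 2 lines were not shown to differ.

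Promoter sequence was available for 29 of the 34 members in the RefSeq table of GRCh38.p14, with TP53INP1, PHLDA3, TNFRSF10B, GADD45A and RRM2B absent from it. The 250 bases before each start were searched on both strands for the p53 decamer, a half-site of the full element. Only exact matches to RRRCWWGYYY were taken (R is A or G, W is A or T, Y is C or T). It was found in 3 of 29 member promoters (10.3%), against 5.53% of all 27305 promoters of that length and 4.43% of those of genes tested, and 2 decamers within 13 bases of each other were found in 0 of 29, against 0.0293%. The element TGATGNAA, bound by ATF4 and CHOP dimers, was found in 1 of 29 (3.45%), against 3.19% of all promoters and 1.44% of those of genes tested. All member promoters with a match are shown: those of AEN, FDXR and PLK2 with a decamer and that of PLK3 with TGATGNAA. Each is a window of 100 bases upstream of the start, 5′ to 3′ on the strand of the gene, with the decamer (or in PLK3 the TGATGNAA match) in capitals. The positions on GRCh38.p14 are chr15:88621240-88621339 (plus strand) for AEN, chr17:74872995-74873094 (minus strand) for FDXR, chr5:58460165-58460264 (minus strand) for PLK2 and chr1:44800197-44800296 (plus strand) for PLK3.
AEN: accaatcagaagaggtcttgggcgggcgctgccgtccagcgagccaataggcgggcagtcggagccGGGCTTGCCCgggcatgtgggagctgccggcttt
FDXR: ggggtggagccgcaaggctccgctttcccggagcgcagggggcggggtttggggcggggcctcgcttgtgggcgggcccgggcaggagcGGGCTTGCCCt
PLK2: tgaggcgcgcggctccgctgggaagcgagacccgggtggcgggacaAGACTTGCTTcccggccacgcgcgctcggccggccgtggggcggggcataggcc
PLK3: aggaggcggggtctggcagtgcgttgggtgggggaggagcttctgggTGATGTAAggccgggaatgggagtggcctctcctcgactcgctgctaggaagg

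The decamer of AEN lay 34 to 25 bases before the start and that of FDXR 11 to 2 bases before it, and the 10 bases were the same, GGGCTTGCCC. The decamer of PLK2, AGACTTGCTT, lay 132 to 123 bases before the start. PLK2, a polo-like kinase, had 5.57 and 4.74 CPM in the gRNA 1 and gRNA 2 lines and 5.71 and 5.62 in WT, with an adjusted p of 0.153 in the gRNA 2 line. The TGATGTAA of PLK3 lay 133 to 126 bases before its start, and PLK3 had 3.71 and 2.94 CPM in KO and 2.61 and 2.82 in WT. CDKN1A, MDM2, BAX, BBC3, PMAIP1, PIDD1 and CCNG1 held neither element in this window. A match describes letters in these windows and is not a measured binding site. Elements with a mismatch to the pattern, farther from the start, after it, or at other starts of the same gene were not searched.

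Genes around the members in the pathway were counted on fixed lists. Of p53 and its regulators, 23 of 24 listed genes were tested, 0 were called in either direction and the median log2 fold change was -0.01, or 0.01 with the offsets on abundance. The one with the smallest p was MDM4, the partner of MDM2 that masks the activation domain of p53, with 54.7 and 62.5 CPM in KO and 51.1 and 45.6 in WT. Both KO values lay above WT, and the log2 fold change was 0.28 (SE 0.08, adjusted p 0.160). Of 32 other p53 targets 27 were tested, 0 were called and the median was -0.04. Of the 27, 9 were above 0, 33.3% against 51.5% of all genes tested. At an unadjusted p under 0.05, 1 was higher and 2 were lower, where 8.14% and 6.17% of all genes tested were. SESN2, a stress-induced sestrin, had the smallest p, with 140.8 and 152.4 CPM in KO and 120.3 and 124.5 in WT and a log2 fold change of 0.26 (SE 0.06, adjusted p 0.104). The TRAIL receptors TNFRSF10A and TNFRSF10D, on that list, had 0 counts in all 4 samples, which allows up to 3 counts a library.

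Cell cycle genes that p21 represses through the DREAM complex gave a narrow set of values. All 25 were tested, 0 were called and 0 had an unadjusted p under 0.05. Their log2 fold changes ran from -0.09 to 0.11 with a median of -0.03. Of the 25, 6 were above 0, 24% against 51.5% of all genes tested. The side of 0 depended on the scaling. With the offsets that removed the trend on abundance, 20 of 25 were above 0 (median 0.02), where 49.7% of all genes tested were. With library size alone, 15 of 25 were above 0 (median 0.00), where 62.4% of all genes tested were. The smallest p was that of PLK4, the kinase that starts centriole duplication, at 0.11 (SE 0.06, adjusted p 0.388).

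Targets of ATF4 and CHOP, the factors of the integrated stress response, were listed because BBC3, PMAIP1, TNFRSF10B and SESN2 are known to be induced by this response as well as by p53. Like the members, this list was chosen with earlier results of these data known, so its counts are a description only. Of 11 tested, 2 rose and 0 fell in KO, where 0.588% of all genes tested rose. At an unadjusted p under 0.05, 7 of the 11 were higher, where 8.14% of all genes tested were, and the median log2 fold change was 0.19 beside 0.01 over all genes tested. PSAT1, a serine synthesis enzyme, had 499 and 560 CPM in KO and 404 and 415 in WT and rose by 0.37 (SE 0.07, adjusted p 0.0333). ASNS, asparagine synthetase, had 27.3 and 31.9 CPM in KO and 23.1 and 21.8 in WT and rose by 0.40 (SE 0.08, adjusted p 0.0482). Of the exonic bases of ASNS, 69.5% are shared with the readthrough gene CZ1P-ASNS on the same strand, so its counts are uncertain, and its adjusted p was 0.0506 with the newer edgeR form and 0.142 without WT replicate 2. That of PSAT1 was 0.279 and 0.223 without WT replicate 1 and 2. ATF4 (log2 fold change 0.00) and DDIT3, which encodes CHOP (0.02), are themselves on this list, so its counts and median are not those of targets alone. The transcripts of ATF4 and DDIT3 had adjusted p-values of 0.983 and 0.933. The part of this response in the values of the members was not tested.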

How the data were processed

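RNA from HEK293T cells (2 MORC2 KO lines, 2 WT samples) was sequenced after poly-A capture as 65 bp pairs. The authors aligned the reads with Subread 2.0.6 to T2T-CHM13 and deposited raw counts of read pairs per RefSeq gene from featureCounts. Per the file header multi-mapping reads were counted and strand was not used, so reads of near-identical copies are uncertain. 0 columns were left unused. Of 28775 genes, 28763 were matched to a symbol by Entrez identifier, and gene coordinates are those of T2T-CHM13. The labels name HEK293T and the methods HEK293 for the edited cells, and no batch is given.

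Counts were filtered with filterByExpr and TMM-scaled, and KO was tested against WT with quasi-likelihood F-tests (edgeR 4.0.16, legacy form, R 4.3.3), two-sided, with Benjamini-Hochberg adjustment over all genes tested, at 0.05. The biological coefficient of variation was 5.33%. SE is the log2 fold change over the root of F, and intervals are at 95%. Each KO line was also fitted alone against both WT samples. The 3-group fit was added after seeing the data. Alternatives were DESeq2 1.42.0, scaling, filters, loess offsets (GC content known for 94.9% of tested genes), replicate block and leaving out each sample. The fits were tested on simulated data. Each p-value sets a difference against the spread between the samples of its fit. For each line alone and for the 3-group fit, that spread comes from the WT pair alone.

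The members and lists were chosen with earlier results of these data known. Named with full values were CDKN1A, MDM2, BAX, BBC3, PMAIP1, members called or at an unadjusted p under 0.05, members whose lines lie on opposite sides of WT, MORC2, and from each other list the genes called or the one with the smallest p. PLK2, PLK3, ZMAT3, TNFRSF10A, TNFRSF10D, ATF4 and DDIT3 were given values after theirs were seen. A further gene of this rule is not reported here.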

Additional observations from a re-analysis of the deposited data

Results flagged for a closer look

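For 3 members the effect differed between the KO lines in the fit with 3 groups (edgeR, adjusted over 17206 genes, 2.08% of which were called). The gRNA 2 line lay below the gRNA 1 line by a log2 difference of -0.80 for PHLDA3, -0.26 for AEN and -0.28 for TRIAP1. The spread in this fit comes from the WT pair alone, each line is 1 library, and the fit was chosen after seeing the data. Against WT, PHLDA3 passed the adjusted threshold in neither line, at 0.47 and -0.34, whereas AEN and TRIAP1 were called in the gRNA 2 line and were at 0.04 and 0.00 in the gRNA 1 line.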

How the results depend on the processing

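With 1 library per line and 2 WT samples, the spread between samples limits these results more than the depth does, except for members with few counts. Members called higher numbered 2 with no filter on low counts (BBC3, adjusted p 0.0158, and PIDD1, adjusted p 0.0428), 5 under a crossed replicate block added after seeing the data, and 0 to 5 when a sample was left out, while those called lower numbered 0 to 4. All of these 5 and 4 calls came without MORC2 KO replicate 1. The member median ran from -0.00669 to 0.0792 when a sample was left out, and was lowest without MORC2 KO replicate 1. The fits without MORC2 KO replicate 1 and 2 are the same fits as those of the gRNA 2 and gRNA 1 lines. They repeat values given above and also enter the totals below. The numbers of the samples are not stated to pair them (correlation of same-numbered deviations -0.124). The replicate block called 0 members, with 237 genes higher and 42 lower in all against 98 and 5 without it, 1 p53 regulator (MDM4) and 4 ATF4 and CHOP targets. With GC and length offsets as well, the block gave 289 and 77 genes, 1 regulator and 4 ATF4 and CHOP targets. The crossed block gave 903 and 809 genes, 2 regulators, 1 other target and 7 ATF4 and CHOP targets. GC and length offsets alone gave 187 and 35 genes, 1 regulator, 1 other target and 4 ATF4 and CHOP targets. No filter gave 463 and 182 genes, and 1, 1 and 4 on the same lists. Genes called lower were 17 in DESeq2 and 15 at an adjusted p under 0.10. ATF4 and CHOP targets called higher were 1 under the newer edgeR form, robust dispersions, loess offsets and a minimum of 10 counts. Leaving out a sample gave 88 to 1397 genes higher and 9 to 2117 lower, 0 to 2 regulators in each direction, 0 to 1 other targets higher and 0 to 3 lower, 0 to 1 cell cycle genes higher and 0 to 3 lower, and 1 to 6 ATF4 and CHOP targets higher. The highest of each came without MORC2 KO replicate 1, and SESN2 was also called without MORC2 KO replicate 2.

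Signs turned for members near 0. MDM2 was at -0.0114 under GC and length offsets and -0.0115 with the block as well, FAS at -0.0333 under loess offsets and SESN1 at 0.0302 with library size alone. When a sample was left out, CDKN1A ran from -0.00809 to 0.178, GADD45A from -0.0453 to 0.0504, FAS from -0.110 to 0.169 and PHLDA3 from -0.344 to 0.472, each lowest without MORC2 KO replicate 1 and highest without MORC2 KO replicate 2. AEN ran from -0.228 to 0.0437 and SESN1 from -0.105 to 0.0731 in the same way. Every fold change here is on the log2 scale, and the cause was not tested. Of the other values, 262 single-gene values kept their direction and their side of the threshold, and 196 counts and medians moved by at most 1.5 times or by less than their spread. These include the members above 0, which went from 20 of 33 to 16 of 34 without MORC2 KO replicate 1.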
